A study of Mus musculus with 6 samples.

Results

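The genes described here are those that hold, activate and answer through the glucocorticoid receptor: 10 rows of the 54532 in the deposited expression table, chosen by gene name as the corticoid receptors, the chaperones and co-chaperones of the receptor complex, and 11-beta-hydroxysteroid dehydrogenase 1. They are the receptors Nr3c1 and Nr3c2, the enzyme gene Hsd11b1, the immunophilins Fkbp5 and Fkbp4, the HSP90 genes Hsp90aa1 and Hsp90ab1, the co-chaperones Ptges3 and Stip1, and the HSP70 gene Hspa8. They were measured by RNA sequencing in MC3T3-E1, an established mouse pre-osteoblast line derived from newborn skull bone. 3 libraries came from cells given glucocorticoid, labelled GC, and 3 from control cells, all taken after 12 hours. The compound and its dose are not named in the labels, no genetic change is stated, and the replicates are called biological but all come from the same cell line.

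In textbook accounts the glucocorticoid receptor, encoded by Nr3c1, waits in the cytoplasm in a complex with HSP90. HSP70 and the adaptor HOP (Stip1) load the receptor onto HSP90, and p23 (Ptges3) stabilizes the mature complex that can bind steroid. FKBP51 (Fkbp5) and FKBP52 (Fkbp4) compete for the same place on HSP90: FKBP51 lowers the receptor's hormone affinity, FKBP52 favours binding and transport to the nucleus, and Fkbp5 is itself a classic target gene of the receptor. In bone, glucocorticoids act on osteoblasts, where 11-beta-hydroxysteroid dehydrogenase 1 can regenerate active hormone inside the cell.

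Levels are given as FPKM, the authors' fragments per kilobase of exon, scaled to library depth, which can be compared between genes. Whole reads recovered from these values summed to between 15492000 and 17373755 per library over the rows that could be recovered. Rows reaching 1 FPKM in 3 or more libraries were tested, 11730 in all. The test was limma-trend on log2(FPKM + 1), with Benjamini-Hochberg adjustment over all tested rows and a threshold of 0.05. Log2 fold changes below are on that scale, which understates the change of low genes, while folds and percentages are ratios of FPKM. Of the 8 osteoblast markers, 6 passed the filter, and their summed level was 3113 to 3356 FPKM in GC libraries and 3650 to 3845 FPKM in control libraries. Nearly all of that sum was Col1a1, Col1a2 and Spp1. The low marker Ibsp had 1.37, 2.06 and 1.43 FPKM in GC libraries against 0.120, 0.708 and 0.338 FPKM in control libraries. Ibsp thus passed the filter only through its GC libraries. Sp7 had 6.03, 4.49 and 4.33 FPKM in GC against 3.95, 4.10 and 3.97 FPKM in control libraries. Neither Ibsp nor Sp7 passed the limma-trend test (adjusted p = 0.0684 and 0.369). Whether these marker differences bear on the genes below was not tested. The markers that failed the filter were Alpl, at 0 in all but 1 library, and Bglap, the osteocalcin gene of mature osteoblasts. Markers of macrophages or blood, endothelium, epithelium, fat and muscle summed to less than 1 FPKM each in every library, and Adgre1, Kdr, Epcam, Plin1 and Myod1 were at 0 throughout.

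Of the 10 genes, 8 passed the filter and 2, Nr3c2 and Hsd11b1, did not. Fkbp5 rose with GC and was the single member called among the 8 tested, by limma-trend and by limma-voom. Over all tested rows limma-trend called 1.94%, 1.08% higher and 0.853% lower in GC, and limma-voom called 2.92%. The other 7 members did not pass, and 2 of the 8 had an unadjusted p under 0.05, against 19.3% of all tested rows. The GC and control libraries did not overlap for 3 of the 8, Fkbp5, Nr3c1 and Hsp90ab1, against 25.6% of all tested rows (10.8% with GC above and 14.8% with GC below). The median log2 fold change of the 8 was −0.063, beside −0.012 over all tested rows. Gene positions below are those of GENCODE M21 on GRCm38. In bulk RNA, fewer cells expressing a gene and less RNA per cell cannot be told apart.

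**Figure D1:**
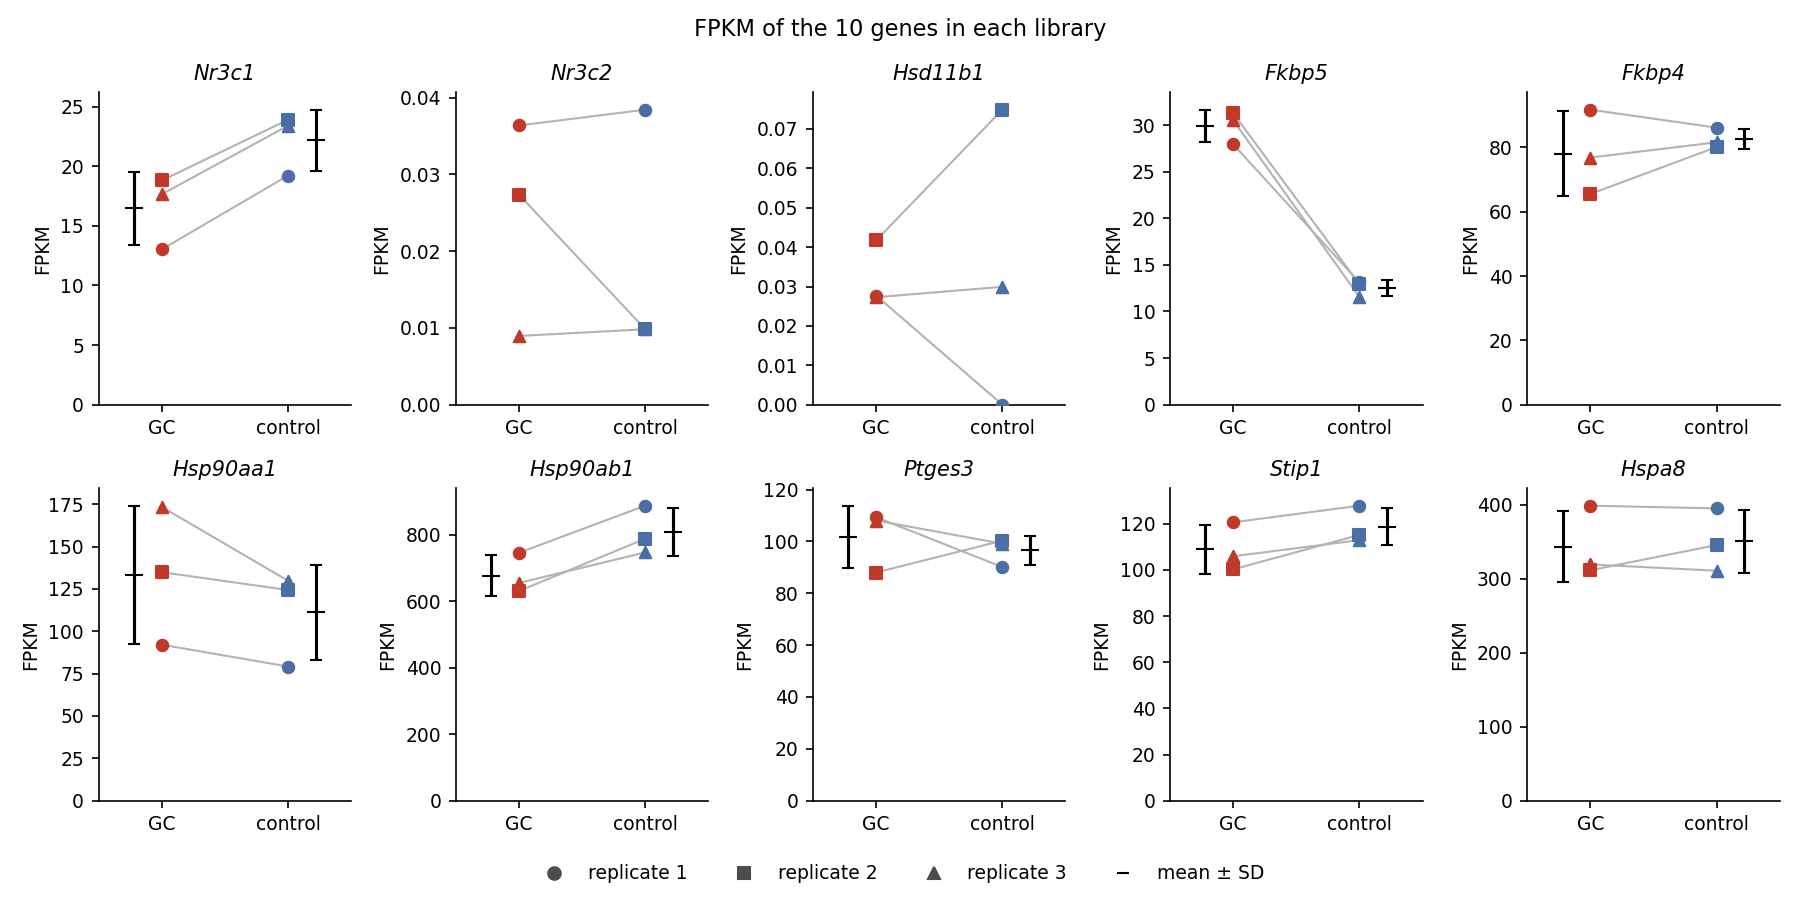
FPKM of each of the 10 genes in the 3 GC libraries (red, left) and the 3 control libraries (blue, right), with marker shape giving the replicate number, grey lines joining equal numbers and black bars giving mean ± SD for the tested genes. The GC libraries sit at 27.9 to 31.3 FPKM for Fkbp5, above all control libraries, and at 13.0 to 18.8 FPKM for Nr3c1, below all control libraries.

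The most abundant member in both groups was Hsp90ab1, followed by Hspa8, and each stood clear of its neighbours in that order. Below them, Hsp90aa1, Stip1, Ptges3 and Fkbp4 had neighbouring ranges that overlapped in GC libraries. In control libraries the ranges of Stip1, Hsp90aa1 and Ptges3 overlapped in the same way, and Fkbp4 lay below Ptges3. Fkbp5 and Nr3c1 came next and exchanged places: Fkbp5 stood above Nr3c1 in GC libraries, and Nr3c1 stood above Fkbp5 in control libraries. The ratio of Fkbp5 to Nr3c1 within a library, a quantity chosen after the values were seen, was 2.15, 1.66 and 1.73 with GC and 0.683, 0.541 and 0.494 in control. Hsd11b1 and Nr3c2 were last in both groups, with overlapping ranges.

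Fkbp5, the gene of FKBP51, lies on chromosome 17, 28399094 to 28517527, minus strand. It had 27.9, 31.3 and 30.5 FPKM in GC libraries 1, 2 and 3, against 13.1, 12.9 and 11.6 FPKM in control libraries 1, 2 and 3. Every GC library lay above every control library, and the spread within each group was small beside the gap. Its mean was 29.9 ± 1.75 FPKM with GC and 12.5 ± 0.851 FPKM in control (SD, n = 3 each), 2.39-fold higher in GC, with a log2 fold change of 1.19 ± 0.10 (SE) and a limma-trend adjusted p of 0.00289. Among all tested rows it stood at rank 40 from the top by log2 fold change and at rank 10 by p. Between libraries of the same number, Fkbp5 was higher with GC by 113%, 142% and 164%. It passed in 17 of 17 alternative settings, with adjusted p from 2.149e-05 to 0.0298, and in each of the 6 fits that left out a library. The recovered reads behind these values were 4493, 5013 and 4982 in GC libraries and 1997, 1920 and 1720 in control libraries.

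Fkbp4, the gene of the competing FKBP52, was the more abundant of the pair in every library and did not pass the test. It lies on chromosome 6, 128429735 to 128438677, minus strand. It had 91.7, 65.5 and 76.8 FPKM in GC libraries and 86.1, 80.1 and 81.6 FPKM in control libraries. The GC libraries spread to both sides of the control libraries. The log2 fold change was −0.094, with a 95% interval of −0.42 to 0.24 and a limma-trend adjusted p of 0.786. The ratio of Fkbp5 to Fkbp4 within a library was 0.305, 0.477 and 0.397 with GC, against 0.152, 0.161 and 0.142 in control. The ratio was higher in every GC library than in any control library, with a mean of 0.393 ± 0.0864 in GC and 0.152 ± 0.00982 in control (SD, n = 3 each).

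**Figure D2:**
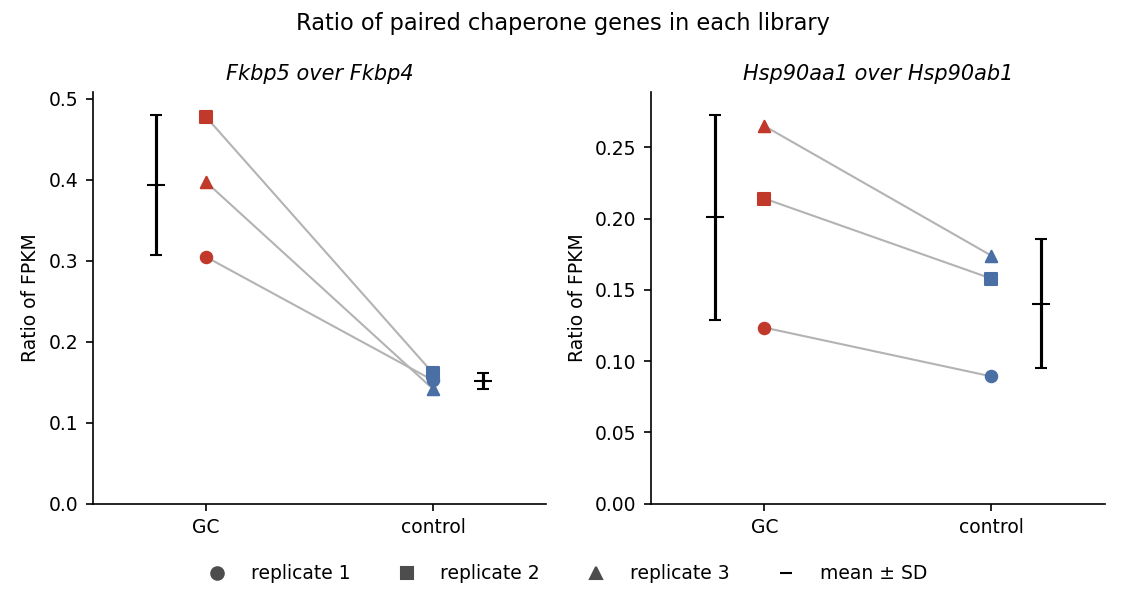
Ratios of FPKM between pairs of members within each library, with GC libraries (red) left of control libraries (blue), marker shape giving the replicate number and black bars giving mean ± SD. The Fkbp5 to Fkbp4 ratio is 0.305 to 0.477 with GC and 0.142 to 0.161 in control without overlap, while the Hsp90aa1 to Hsp90ab1 ratio overlaps between the groups but is higher with GC in each replicate pair.

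The promoters of the 2 immunophilin genes are shown because one gene rose and its paralog did not pass the test. Each sequence is the 250 bases before the RefSeq transcription start in GRCm38.p6, read 5′ to 3′ on the minus strand, with CCAAT or its reverse ATTGG in capitals. The Fkbp5 stretch lies at chr17:28486150-28486399 and the Fkbp4 stretch at chr6:128438657-128438906. The Fkbp5 stretch is inside the GENCODE M21 gene, which reaches 28517527, so it precedes a start within the gene and not the outermost one.
Fkbp5: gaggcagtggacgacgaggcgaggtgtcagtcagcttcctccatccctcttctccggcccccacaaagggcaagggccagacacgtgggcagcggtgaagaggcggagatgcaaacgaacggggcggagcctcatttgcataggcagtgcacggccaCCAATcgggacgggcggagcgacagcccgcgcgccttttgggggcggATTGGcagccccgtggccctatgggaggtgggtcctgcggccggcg
Fkbp4: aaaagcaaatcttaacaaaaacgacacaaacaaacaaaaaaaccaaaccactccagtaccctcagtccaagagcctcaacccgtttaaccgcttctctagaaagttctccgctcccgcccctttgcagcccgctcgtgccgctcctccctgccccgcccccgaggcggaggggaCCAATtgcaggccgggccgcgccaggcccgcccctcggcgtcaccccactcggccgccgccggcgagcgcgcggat
A CCAAT box, the letters bound by the factor NF-Y, stands 93 and 46 bases before the Fkbp5 start and 76 bases before the Fkbp4 start. RefSeq promoters were matched for 6 of the 10 genes, Hsd11b1, Fkbp4, Nr3c2, Ptges3, Fkbp5 and Stip1. In these windows CCAAT was present in 5 of the 6, searched on both strands, against 37.4% of 32851 promoters. The palindromic glucocorticoid response element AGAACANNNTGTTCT was found in 0 of the 6 and in 0.00913% of promoters, and its half-site AGAACA, which overlaps it, in 0 of the 6 and in 19.0% of promoters. The heat shock element of 3 units, GAANNTTCNNGAA, was found in 0 of the 6 and in 0.603% of promoters. TATAAA was found in Stip1, 30 bases before its start, and in 13.6% of promoters. The Hsd11b1 and Nr3c2 windows, like that of Fkbp5, lie inside their GENCODE M21 genes, and other starts of these genes were not searched. These counts describe letters in short windows and say nothing about binding elsewhere.

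The genes whose profile over the 6 libraries lay closest to that of Fkbp5 were Foxred2, Glul and Pla1a. Likeness was the root mean square difference of log2(FPKM + 1) values centred on each gene's mean, and it was 0.0963, 0.135 and 0.147 on that log2 scale. Foxred2, a flavoprotein of the endoplasmic reticulum, averaged 16.8 ± 1.52 FPKM in GC and 5.99 ± 0.623 FPKM in control libraries (SD, n = 3 each; limma-trend adjusted p = 0.00289). Glul, glutamine synthetase, averaged 36.4 ± 0.920 FPKM in GC and 18.2 ± 1.41 FPKM in control libraries (adjusted p = 0.00785). Pla1a, a phospholipase, averaged 2.81 ± 0.275 FPKM in GC and 0.836 ± 0.272 FPKM in control libraries (adjusted p = 0.0225). Pla1a owed its place past the filter to its GC libraries, with control libraries 2 and 3 at 0.634 and 0.728 FPKM. These genes were picked by likeness to Fkbp5, so a difference between the groups was built into that choice. Their adjusted p values are no separate support. Leaving out GC library 3 ended the calls of Glul (adjusted p = 0.0672) and Pla1a (adjusted p = 0.125), and leaving out GC library 1, control library 2 or control library 3 also ended that of Pla1a (adjusted p = 0.0507, 0.0886 and 0.0869), as did testing with no filter on low values (adjusted p = 0.0949). For Nr3c1 the closest genes were Eprs, Stxbp5 and Sos2, at 0.0410, 0.0419 and 0.0459, and none of these passed the test.

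Nr3c1, the glucocorticoid receptor itself, lies on chromosome 18, 39410545 to 39519421, minus strand. It had 13.0, 18.8 and 17.6 FPKM in GC libraries 1, 2 and 3, against 19.2, 23.9 and 23.4 FPKM in control libraries 1, 2 and 3. The groups did not overlap, although the highest GC library and the lowest control library were close. Both libraries numbered 1 were the lowest of their group. The mean was 16.5 ± 3.06 FPKM with GC and 22.2 ± 2.57 FPKM in control (SD, n = 3 each), and the log2 fold change was −0.42 with a 95% interval of −0.77 to −0.057. It did not pass the limma-trend test, with an adjusted p of 0.204. Compared between libraries of the same number, the GC level of Nr3c1 differed by −32.2%, −21.3% and −24.6%.

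The sample titles do not say that libraries of the same number belong together, and that pairing was inferred from these same values. With the replicate number as a block, Nr3c1 passed in the downward direction. Its log2 fold change of −0.42 had a 95% interval of −0.61 to −0.22 and a limma-trend adjusted p of 0.0305. That fit called 2 of the 8 tested members and 8.96% of all tested rows, and limma-voom with the block called 2 of the 8 and 16.7% of all rows. Nr3c1 passed in 3 of 17 alternative settings, the 3 with the block, and in 0 of the 6 that left out a library, where the log2 fold change ran from −0.51 to −0.26. Nr3c1 belongs to the fifth of tested genes with the longest exons, whose median deviation was −0.196, 0.091 and −0.091 (log2) in GC libraries 1, 2 and 3, and 0.042, 0.107 and 0.081 in control libraries. It also belongs to the fifth with the lowest share of G and C bases, whose median deviation was −0.143, 0.065 and 0.146 in GC libraries and −0.135, 0.022 and 0.059 in control libraries. With the length trend removed from each library, the log2 fold change was −0.32, with an adjusted p of 0.216 without the block and 0.0290 with it. The part of base composition in the Nr3c1 difference was not tested.

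The mineralocorticoid receptor gene Nr3c2, whose protein also binds glucocorticoids, had almost no reads. The gene lies on chromosome 8, 76899442 to 77245012, plus strand. It had 4, 3 and 1 reads in GC libraries, against 4, 1 and 1 in control libraries. The levels were 0.0364, 0.0274 and 0.00896 FPKM with GC and 0.0384, 0.00983 and 0.00982 FPKM in control, at or near the 3 reads taken as the floor of a count. A difference between the groups was not detectable at this depth. Esr2, an estrogen receptor from the list of other steroid receptors, averaged 3.53 ± 0.658 FPKM in GC and 3.30 ± 0.574 FPKM in control libraries (SD, n = 3 each; limma-trend adjusted p = 0.846). In that list limma-trend and limma-voom called 0 of the 2 tested genes, and 0 reached an unadjusted p under 0.05.

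Hsd11b1, the enzyme gene, was as low as Nr3c2. The gene lies on chromosome 1, 193221634 to 193264075, minus strand. It had 2, 3 and 2 reads in GC libraries and 0, 5 and 2 reads in control libraries, which is 0.0277, 0.0417 and 0.0273 FPKM with GC and 0, 0.0749 and 0.0299 FPKM in control. A difference was not detectable at this depth. Hsd11b2, the enzyme that inactivates the hormone, also failed the filter. It had 0, 0.0642 and 0 FPKM in GC libraries against 0.135, 0.138 and 0.138 FPKM in control libraries. At an exon length of 1840 bases such levels stand for a few reads at most, near the floor, so no comparison was made. Of 12 listed genes of corticosteroid metabolism and transport, 7 were tested and 0 passed in limma-trend or limma-voom. An unadjusted p under 0.05 was reached by 1 (14.3%, against 19.3% of all tested rows). The median log2 fold change of this list was −0.13, or −0.019 with the length trend removed. H6pd, which supplies the cofactor to 11-beta-hydroxysteroid dehydrogenase 1, had 5.68, 7.58 and 4.93 FPKM in GC libraries and 6.65, 7.0 and 6.78 FPKM in control libraries (limma-trend adjusted p = 0.598). Abcb1b, one of the P-glycoprotein genes whose product exports steroids, averaged 7.49 ± 0.466 FPKM in GC and 8.26 ± 0.342 FPKM in control libraries (adjusted p = 0.530). Its paralog Abcb1a, named after its values were seen, had 1.54, 2.27 and 1.95 FPKM in GC against 2.83, 3.43 and 2.97 FPKM in control libraries, without overlap. Abcb1a had an adjusted p of 0.119, and of 0.0399 with the replicate block.

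Hsp90ab1, the constitutive cytosolic HSP90, lies on chromosome 17, 45567775 to 45573271, minus strand. It had 745, 630.2 and 655 FPKM in GC libraries, against 887, 788 and 746 FPKM in control libraries. The GC libraries were all below the control libraries, by a narrow margin between GC library 1 and control library 3. The mean was 677 ± 60.7 FPKM in GC and 807 ± 72.2 FPKM in control (SD, n = 3 each). The log2 fold change was −0.25, with a 95% interval of −0.61 to 0.11 and a limma-trend adjusted p of 0.427. Between libraries of the same number the GC level differed by −16.0%, −20.0% and −12.3%, and 28.4% of all tested rows were lower in all 3 pairs. It passed in 1 of 17 alternative settings, the replicate block with the length trend removed, at an adjusted p of 0.0496.

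Hsp90aa1, the stress-inducible cytosolic HSP90, varied more between replicates than between groups. The gene lies on chromosome 12, 110690605 to 110702728, minus strand. It had 92.1, 135 and 173 FPKM in GC libraries 1, 2 and 3, against 79.2, 124 and 130 FPKM in control libraries 1, 2 and 3. The groups overlapped, and the libraries numbered 1 were the lowest in both. The coefficient of variation was 30.5% in GC and 25% in control libraries. Between libraries of the same number Hsp90aa1 was 16.3%, 8.47% and 33.5% higher with GC, and 22.9% of all tested rows were higher in all 3 pairs. The log2 fold change was 0.25, with a 95% interval of −0.39 to 0.88 and a limma-trend adjusted p of 0.681, or 0.174 with the replicate block. Leaving out single libraries moved the log2 fold change widely, to 0.023 without control library 1, 0.038 without GC library 3 and 0.49 without GC library 1. With tested genes divided by their share of G and C bases, the set holding Hsp90aa1 had median deviations between −0.008 and 0.025 (log2) in all libraries. Hsp90aa1, at 43.74%, lay near the lower edge of that set, as Ptges3, at 43.25%, was already in the set with the lowest share. That lowest set had −0.143, 0.065 and 0.146 in GC libraries 1, 2 and 3, and −0.135, 0.022 and 0.059 in control libraries. Like Hsp90aa1, it was lowest in library 1 of both. The part of base composition in the Hsp90aa1 spread was not tested.

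Set against each other, the HSP90 transcripts differed in composition from library to library. Hsp90aa1 made up 11.0%, 17.6% and 20.9% of the summed FPKM of both genes in GC libraries, against 8.20%, 13.6% and 14.8% in control libraries. The share was higher with GC at each replicate number, and the groups overlapped. The sum of both genes was 837, 765 and 828 FPKM with GC, against 966, 912 and 876 FPKM in control, with every GC library below every control library. Of their relatives, Hsp90b1 of the endoplasmic reticulum had 138, 179 and 218 FPKM in GC libraries and 134, 171 and 172 FPKM in control libraries (limma-trend adjusted p = 0.746). Like Hsp90aa1, it was lowest in the library numbered 1 of each group. The mitochondrial Trap1 averaged 35.5 ± 3.95 FPKM in GC and 34.6 ± 2.91 FPKM in control libraries (SD, n = 3 each; adjusted p = 0.915). These genes belong to a list of 4 HSP90 paralogs and heat shock factors, in which limma-trend and limma-voom called 0, 0 reached an unadjusted p under 0.05, and the median log2 fold change was 0.011.

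Hspa8, the constitutive cytosolic HSP70, was near the same level in both groups. The gene lies on chromosome 9, 40800984 to 40810087, plus strand. It had 399, 311 and 319 FPKM in GC libraries and 395, 345 and 311 FPKM in control libraries. Library 1 was the highest in each group and the ranges overlapped almost entirely. The log2 fold change was −0.032, with a 95% interval of −0.41 to 0.35 and a limma-trend adjusted p of 0.943. Exons of Hspa8 contain 3 small nucleolar RNA genes that were listed at 0.

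Stip1, the adaptor HOP that links HSP70 to HSP90, lies on chromosome 19, 7020702 to 7039967, minus strand. It had 121, 100.2 and 106 FPKM in GC libraries and 128, 115 and 113 FPKM in control libraries. The groups overlapped, and each GC library was below the control library of its number. The log2 fold change was −0.12, with a 95% interval of −0.42 to 0.17 and a limma-trend adjusted p of 0.652. Ptges3, the p23 co-chaperone, lies on chromosome 10, 128058954 to 128077272, plus strand. It had 109, 88.0 and 108 FPKM in GC libraries and 90.1, 100.3 and 99.1 FPKM in control libraries. Its groups overlapped and its pairs were mixed, with a log2 fold change of 0.071, a 95% interval of −0.23 to 0.38 and an adjusted p of 0.826. The pseudogene row Ptges3-ps was listed at 112, 104 and 101 FPKM in GC and 148, 92.7 and 101 FPKM in control libraries, so the division of reads between Ptges3 and its near-identical copy is uncertain.

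**Figure D3:**
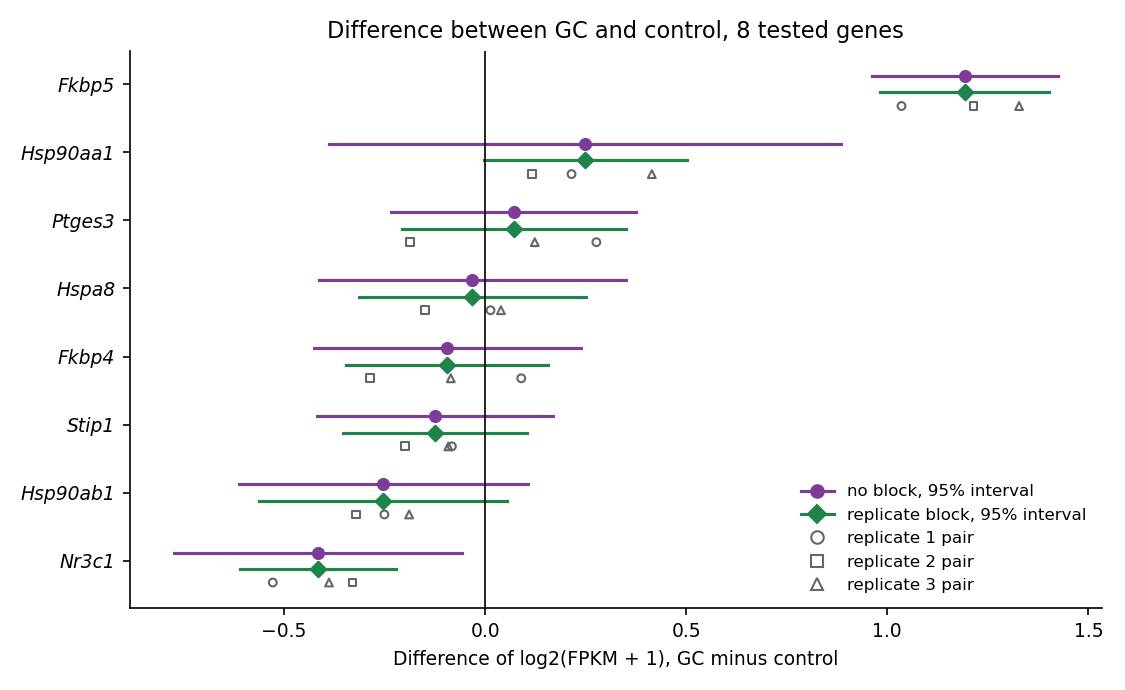
Log2 fold change (GC minus control, log2(FPKM + 1) scale) of the 8 tested members, with the estimate and 95% interval without the replicate block (purple) and with it (green), and open marks for the 3 replicate pairs. The Fkbp5 interval lies above 0, the Nr3c1 interval runs from −0.77 to −0.057 and narrows to −0.61 to −0.22 with the block, and the intervals of the other members without the block include 0.

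Beyond the 10 genes, 9 lists of related genes were examined, with 97 tested genes in all. The list of known glucocorticoid-induced genes had 7 of 12 tested genes higher in GC and 0 lower, with a median log2 fold change of 0.68 and 12 of 12 positive. Over all tested rows 1.08% were called higher in GC. This list was assembled from genes known to respond, and with earlier results of these data known. Its counts therefore describe the exposure and are not an independent check. Tsc22d3, the leucine zipper protein GILZ, averaged 162 ± 14.4 FPKM in GC and 28.4 ± 1.43 FPKM in control libraries (SD, n = 3 each; limma-trend adjusted p = 0.000371). Sgk1, a kinase gene, averaged 129.9 ± 15.5 FPKM in GC and 24.9 ± 1.98 FPKM in control libraries (adjusted p = 0.000389). Per1, a clock gene, averaged 14.4 ± 2.56 FPKM in GC and 5.15 ± 1.18 FPKM in control libraries (adjusted p = 0.0174). Per1 lost its call without GC library 3 (adjusted p = 0.102) or control library 2 (adjusted p = 0.0599), and with no filter on low values (adjusted p = 0.0960). Glul, described above, was also in this list. The Fkbp5 log2 fold change of 1.19 lay below those of Tsc22d3 (2.47), Sgk1 (2.33) and Per1 (1.33) and above that of Glul (0.96).

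Other immunophilins belong to the FKBP family of Fkbp5 and Fkbp4 or to the cyclophilins, which are separate families of peptidyl-prolyl isomerases. In this list 2 of 12 tested genes were higher in GC (16.7%, against 1.08% of all tested rows) and 0 lower. The median log2 fold change of the list was 0.20, beside −0.012 over all tested rows. Positive values were found in 11 of the 12, beside 5594 of the 11730 tested rows. The called genes encode isomerases of the endoplasmic reticulum. Fkbp7 had 18.8, 13.0 and 17.6 FPKM in GC libraries against 8.55, 7.42 and 9.59 FPKM in control libraries, a log2 fold change of 0.87 (limma-trend adjusted p = 0.0374), or 0.75 with the length trend removed. Fkbp14 had 22.2, 19.4 and 18.9 FPKM in GC libraries against 14.5, 13.1 and 12.7 FPKM in control libraries, a log2 fold change of 0.55 (adjusted p = 0.0482). Both were above control in every GC library. Leaving out single libraries ended each call in 5 of 6 fits, all but the fit without GC library 2, with adjusted p up to 0.168 for Fkbp7 and 0.230 for Fkbp14. Testing with no filter on low values ended both calls (adjusted p = 0.160 for Fkbp7 and 0.167 for Fkbp14), and a spread estimate without trend ended that of Fkbp14 (adjusted p = 0.0621). Exons of Fkbp14 share 208 bases with Plekha8 on the opposite strand, and without a stated strand setting the reads of that stretch cannot be told apart.

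The remaining chaperone lists showed 0 calls. Of 16 other HSP90 co-chaperones, limma-trend and limma-voom called 0 and 0 reached an unadjusted p under 0.05. Their median log2 fold change was 0.11, and 13 of the 16 were positive, beside 5594 of the 11730 tested rows. Nudc, a co-chaperone of the dynein pathway, averaged 55.5 ± 9.41 FPKM in GC and 54.7 ± 3.28 FPKM in control libraries (SD, n = 3 each; adjusted p = 0.983). Of 16 tested HSP70 and HSP40 genes, limma-trend and limma-voom called 0 and 0 reached an unadjusted p under 0.05, with a median of −0.018. Bag1, a nucleotide exchange factor of HSP70, averaged 160.0 ± 30.1 FPKM in GC and 159 ± 7.62 FPKM in control libraries (adjusted p = 0.992). Dnaja2, an HSP40 co-chaperone, averaged 55.0 ± 5.65 FPKM in GC and 55.3 ± 1.31 FPKM in control libraries (adjusted p = 0.965). With the replicate block 1 of the 16 genes of this list passed, against 8.96% of all tested rows. It was Dnajb4, named after its values were seen. Dnajb4 had 8.07, 9.38 and 11.6 FPKM in GC and 6.05, 7.45 and 8.46 FPKM in control libraries (adjusted p = 0.266, or 0.0429 with the block). The stress-inducible HSP70 gene Hspa1a failed the filter, with 0.139, 0 and 0 FPKM in GC and 0.0839, 0.0429 and 0.0643 FPKM in control libraries. Its paralog Hspa1b, named after its values were seen, passed the filter. Hspa1b had 8.28, 6.22 and 6.41 FPKM in GC and 6.88, 6.27 and 6.67 FPKM in control libraries (limma-trend adjusted p = 0.848).

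The receptor's coregulators, the proteins through which it acts on chromatin once bound, had mostly negative log2 fold changes, none of them past the test. Of 17 tested, limma-trend and limma-voom called 0, and 9 reached an unadjusted p under 0.05 in the downward direction (52.9%, against 11.5% of all tested rows). A negative log2 fold change was found in 16 (94.1%, against 52.3% of all tested rows). The median was −0.33, beside −0.012 over all tested rows. In 9 of the 17 every GC library lay below every control library (52.9%, against 14.8% of all tested rows). These transcripts are long, with a median exon length of 8753 bases. With the length trend removed the median was −0.26, with 15 negative. Smarca4, the BRG1 remodelling ATPase, had 22.2, 25.4 and 20.0 FPKM in GC against 30.8, 30.4 and 29.0 FPKM in control libraries (limma-trend adjusted p = 0.115, or 0.0386 with the replicate block). Tgfb1i1, the focal adhesion coactivator Hic-5, averaged 27.7 ± 3.59 FPKM in GC and 24.5 ± 0.953 FPKM in control libraries (SD, n = 3 each; adjusted p = 0.516).

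With the replicate block 3 of the 17 coregulators passed, all lower (17.65%, against 8.96% of all tested rows in either direction). They included Smarca4 and Ncoa3, the second named after its values were seen. Ncoa3, a p160 coactivator, had 4.45, 6.02 and 3.91 FPKM in GC against 6.93, 7.24 and 6.61 FPKM in control libraries (limma-trend adjusted p = 0.142, or 0.0425 with the block). GC library 2 lay closest to the control libraries for both Smarca4 and Ncoa3, and both passed without the block when it was left out. Of 11 genes of nuclear import and dynein transport, limma-trend and limma-voom called 0. An unadjusted p under 0.05 was reached by 2, both lower (18.2%). Over all tested rows that share was 19.3%, and 11.5% in the downward direction. The median of the list was −0.12, or 0.034 with the length trend removed. Kpna2, an importin alpha, averaged 139.5 ± 13.3 FPKM in GC and 131 ± 6.62 FPKM in control libraries (SD, n = 3 each; adjusted p = 0.783). Kpnb1, the importin beta, averaged 123 ± 3.13 FPKM in GC and 136 ± 9.79 FPKM in control libraries (adjusted p = 0.556).

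**Figure D4:**
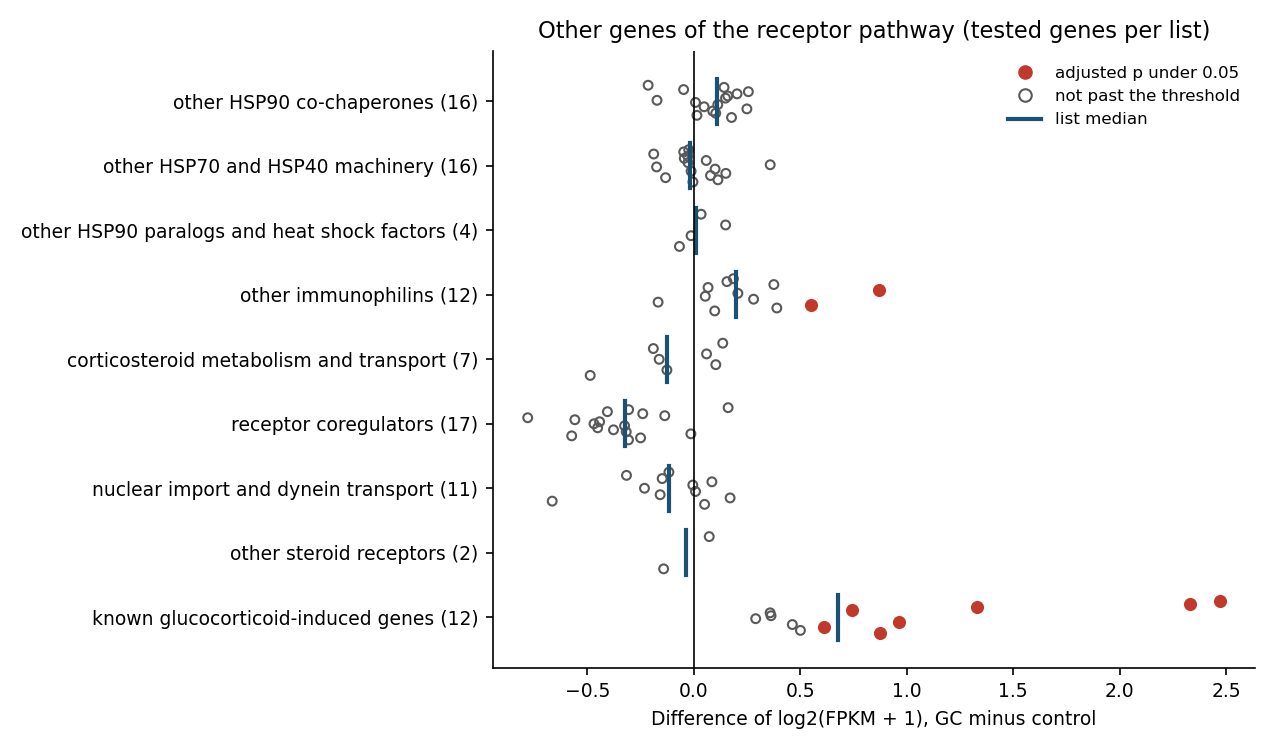
Log2 fold change (GC minus control, log2(FPKM + 1) scale) of every tested gene in the 9 lists, 1 point a gene, with the list median as a bar and called genes marked. The known glucocorticoid-induced genes all lie above 0 with a median of 0.68, and 16 of the 17 receptor coregulators lie below 0 with a median of −0.33.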

How the data were processed

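RNA was sequenced from 3 GC and 3 control libraries of MC3T3-E1 cells; groups and replicate numbers came from the sample titles. Per the submitters' processing notes, the tools included HTSeq, HISAT2 and DESeq2 and the build was mm10. Tool versions, the annotation release and the strand option were not given in the sources used here. The authors deposited FPKM values. Exon lengths came from GENCODE M21. Rows with at least 1 FPKM in 3 libraries were tested on log2(FPKM + 1) with limma-trend (limma 3.58.1, R 4.3.3), after the script was tested on simulated data. Whole reads were recovered within 0.001 reads for 96.8% of 26515 rows with a matched length above 0, and for 620 further rows by solving for the length; limma-voom on those reads called 342 genes.

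The 10 genes and all lists were chosen with earlier results of these data known. In each list the genes past the threshold were named, up to 4 by lowest adjusted p, or, where none passed, the 2 tested genes of highest mean FPKM; exceptions are stated, and some results under this rule are not reported here. The sample titles do not say that libraries of the same number were handled together. Deviations of same-numbered libraries correlated at 0.511, 0.248 and 0.383, and those of unlike numbers at −0.378 to 0.023. The numbers were taken as pairs on that ground, so the pairing rests on the same values that the block is used to test. Intervals cover 95%. Read counts carry counting error only, and p-values measure the spread between these libraries. Alternatives were a replicate block, limma-voom, another pseudocount, other filters, TPM or TMM scaling, another spread estimate, removal of the length trend, and leaving out each library.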

Additional observations from a re-analysis of the deposited data

How the results depend on the processing

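Fkbp5 rose in every alternative run. The number of called genes was 227, and became 430 with the length trend removed, 342 with limma-voom, 17 with no filter, 1051 with the replicate block, 1514 with the block and the length trend removed, 1958 with limma-voom and the block (added after seeing the data), and 14 to 1238 when single libraries were left out. Called members numbered 1, and 2 with the replicate block, 3 with the block and length trend removed, and 2 with limma-voom and the block. Called list genes numbered 9, and became 3 with no filter, 16 with the block, 19 with the block and length trend removed, 26 with limma-voom and the block, and 2 to 23 when single libraries were left out. The highest of these counts came without GC library 2 and the lowest without GC library 3. The cause was not tested.

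Some log2 fold changes near 0 changed sign, none of them called. With the length trend removed, with and without the block, Ptges3 was −0.017, Nudc −0.11 and Trap1 −0.032. With TPM scaling, Nudc was −0.047 and Trap1 −0.020. Bag1 was 0.0069 with limma-voom and 0.0062 with limma-voom and the block. When single libraries were left out, the ranges were −0.22 to 0.024 for Fkbp4, −0.14 to 0.0575 for Hspa8, −0.14 to 0.13 for Bag1, −0.068 to 0.073 for Dnaja2, −0.040 to 0.175 for Esr2, −0.0077 to 0.32 for Hsp90b1, −0.079 to 0.15 for Nudc and −0.052 to 0.10 for Trap1. With 3 libraries a group, the 95% intervals of the uncalled members other than Nr3c1 include 0 in the main limma-trend fit. With the length trend removed and no block, the interval was −0.52 to −0.077 for Hsp90ab1 and −0.40 to −0.031 for Stip1. Neither was called in that fit (limma-trend adjusted p = 0.131 and 0.180). The few reads of Nr3c2 and Hsd11b1 allow no comparison.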
